A study of Mus musculus with 2 samples.

Results

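The genes of the interferon system were followed in astrocytes cultured from the dentate gyrus (DG) of adult mice. They were chosen by gene symbol, with a fixed pattern that takes in interferon receptors, their STAT and IRF transcription factors, cytosolic RNA sensors and the families of genes that interferons induce. The pattern matched 66 of the 16302 gene symbols found in the 2 deposited tables. It also took in Irf2bp1, Irf2bp2 and Irf2bpl, which encode partners of IRF2 rather than IRF proteins and are given apart. The 2 tables come from 1 WT library and 1 β-arr1 KO library, with the strain labelled C57BL/6 (backcrossed to C57BL/6J per the methods). The KO mice lack a working Arrb1 gene in every cell from the germline on, so the culture is not an astrocyte-restricted knockout. WT and KO mice were littermates or came from separately bred lines, and their age (beyond adult) and sex are not given for these libraries. A figure legend gives 3 mice in each group, without saying whether their cells were pooled into the library. The astrocyte cultures were grown in medium with serum, and the methods name no interferon treatment. With a single library per genotype there was no replicate error and no test of genotype, and all ratios below compare these 2 libraries. Values are in FPKM (sequenced fragments corrected for the length of the transcript and the number of fragments mapped), so the authors' scaling for length and depth is part of every value. The genes were chosen with earlier results of these 2 libraries known, and their values are given as a description.

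Interferons are secreted proteins that warn neighbouring cells of infection. Type I interferons bind the receptor chains IFNAR1 and IFNAR2, and interferon gamma binds IFNGR1 and IFNGR2. The receptors activate JAK kinases, which phosphorylate STAT proteins. A complex of STAT proteins and IRF9 then binds the interferon-stimulated response element (ISRE) near the start of interferon-stimulated genes, whereas interferon gamma acts through the gamma-activated site (GAS). Most of the induced proteins block steps of virus growth, and cells keep a low level of them without infection. Astrocytes and microglia both respond to interferons.

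The label of the KO library was checked with Arrb1 (NCBI gene 109689), which was at 7.62 FPKM for WT against 2.72 for KO, a ratio of 0.358 (95% interval, 0.301 to 0.424). Steps between the lowest values put the depth at about 9.52 M mapped fragments for the WT library, and the KO library had 9.80 M. From this depth the number of fragments behind each value was estimated, together with an exact Clopper-Pearson interval of the ratio that covers counting error only. The intervals do not cover differences in the bounds of a row, which were the same in both tables for 30 of the 45 members analysed. The tables held 15362 symbols for WT and 15388 for KO. The KO table listed 4 Y-linked genes with a sum of 8.44 FPKM and the WT table listed none of them, so that sex and genotype cannot be told apart here. All 8 astrocyte markers were listed in both tables, including Gfap at 189 and 192 FPKM. All 10 microglia markers were listed as well, and C1qa stood at 246 FPKM in WT, so the cultures held microglial RNA.

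Most genes of the interferon system were lower in the β-arr1 KO library. Of the 66 members, 57 were listed in both tables and 45 of these reached 1 FPKM in at least one library. Among the 45 members, 19 (42.2%) had a ratio of β-arr1 KO vs. WT below 2/3, compared with 6.74% of all 12171 genes analysed the same way. A ratio above 3/2 was found for 1 member, Ifih1, compared with 7.9% of all genes. The remaining 25 members lay between these limits. The median log2 ratio was -0.44 over the 45 members and 0.02 over all genes, and 84.4% of the members against 46.9% of all genes were lower in β-arr1 KO. In bulk RNA, fewer cells of a type and less RNA per cell cannot be told apart. The 10 microglia markers summed to 993 FPKM for WT against 771 for KO, a ratio of 0.776, with 9 of 10 lower in KO and single ratios from 0.645 to 1.05.

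**Figure D1:**
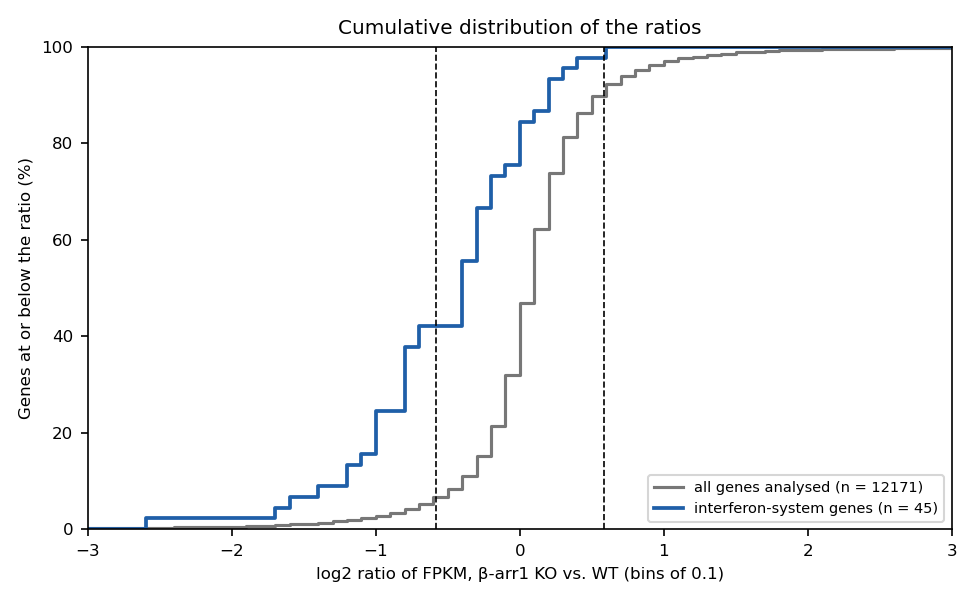
Cumulative share of genes (y axis, percent) at or below a given log2 ratio of FPKM, β-arr1 KO vs. WT (x axis, bins of 0.1), for the 45 interferon-system genes (blue) and all 12171 genes analysed (grey), with dashed lines at the limits of 2/3 and 3/2. The blue curve lies to the left of the grey one, and 42.2% of its genes are below the lower limit against 6.74% of all genes.

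The share below the limit differed by level of expression. Of 15 members whose higher value was from 1 to 5 FPKM, 10 (66.7%) were below 2/3, compared with 13.2% of all genes in that range. Of 17 members from 5 to 20 FPKM, 5 (29.4%) were below, compared with 5.01%. Of 13 members at 20 FPKM or more, 4 (30.8%) were below, compared with 4.09%. The share was highest in the lowest range, both for the members and for all genes. At a minimum of 5 FPKM, 9 of 30 members were below 2/3, compared with 4.61% of all genes. Below 1/2 were 11 of the 45 members, compared with 2.73% of all genes. Of the 30 members whose rows had the same bounds in both tables, 13 were below 2/3, compared with 6.32% of such genes. With overlapping rows of each table summed into loci, 17 of 46 loci with a member were below 2/3, compared with 6.19% of all loci. All 19 members below the limit had a counting interval below 1, and in 6 of them (Oas2, Xaf1, Irgm2, Ifit1, Irgm1 and Gbp2) the whole interval lay below 2/3. Summed with its neighbour Igtp, the Irgm2 locus had a ratio of 0.842.

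The members were also divided into signalling genes and induced genes. Among receptors, transducers, IRF factors and IRF2 partners, 1 of 16 analysed genes was below 2/3, a share near the 6.74% of all genes, and the median ratio was 0.885. Even so, 13 of these 16 genes were lower in KO, compared with 46.9% of all genes. Among the families of induced effectors, 17 of 26 analysed genes were below 2/3, compared with the same 6.74%, and the median ratio was 0.558. Of these 26 genes, 23 were lower in KO. This division by role was drawn with the values known and is a description.

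**Figure D2:**
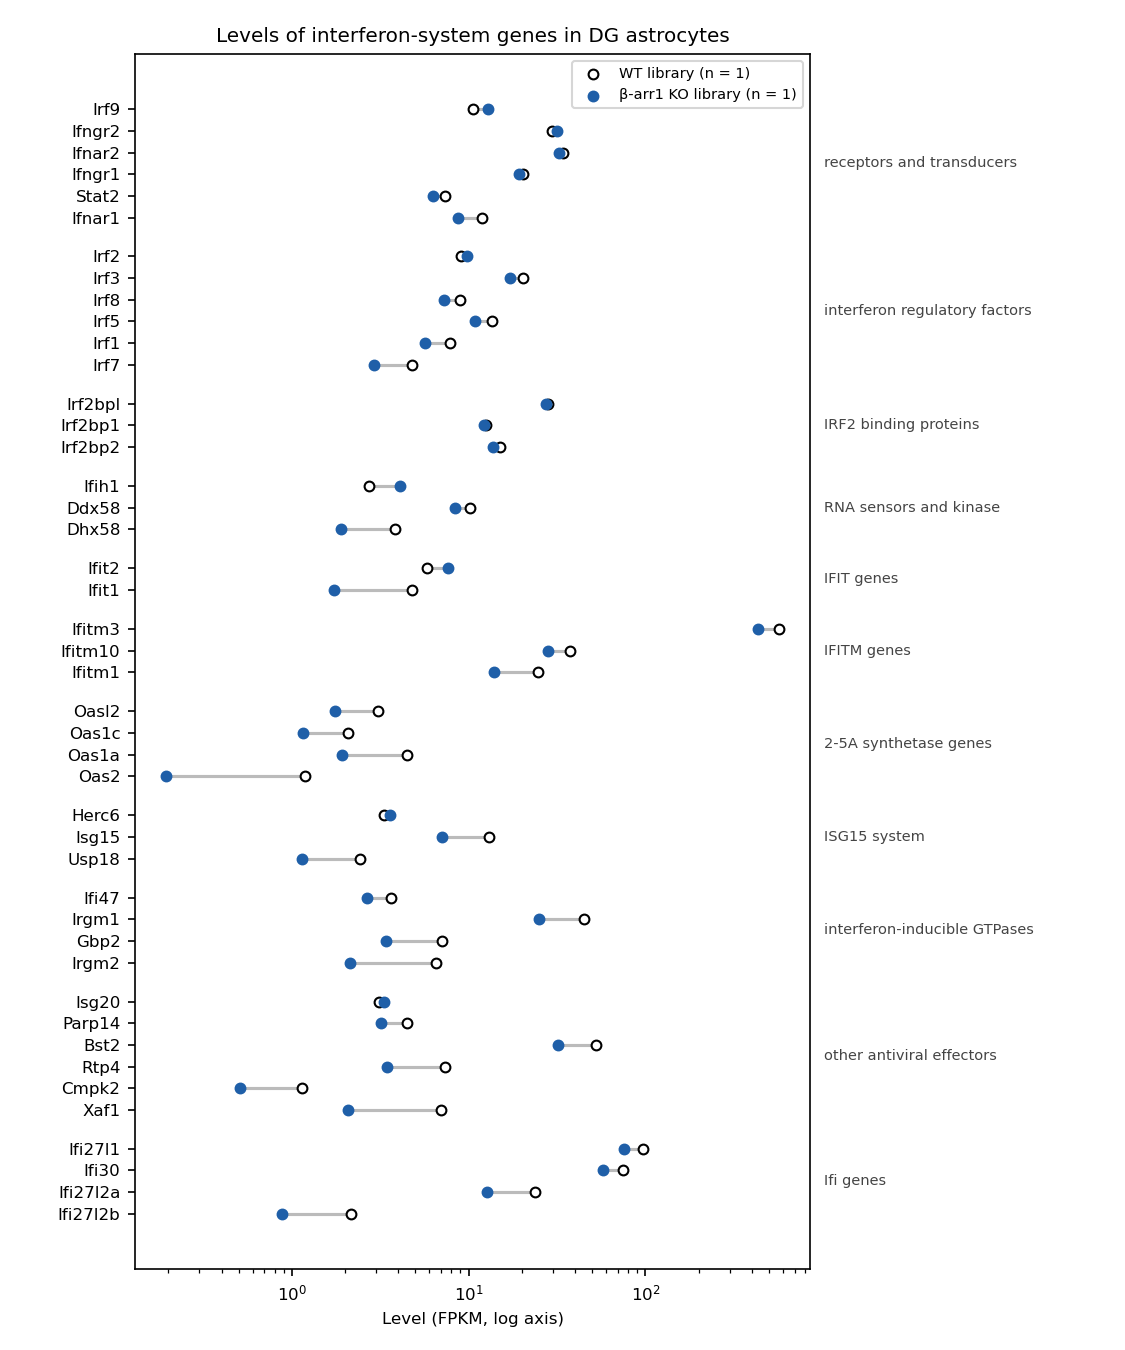
Level in FPKM (x axis, log scale) of 44 of the 45 interferon-system genes that reached 1 FPKM in at least one library, in the WT library (open circles) and the β-arr1 KO library (blue circles), with genes grouped by role. The KO circle lies to the left of the WT circle for 37 of the 44 genes drawn, by little among most receptors and by more among most induced genes.

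The ISRE and the GAS were looked for near the starts of these genes. RefSeq promoter windows (GRCm38.p6, 250 bases before to 50 bases after the annotated start) were found for 49 of the 66 members by NCBI gene number, 58 windows in all. They were searched on both strands for the ISRE core, which is GAAA, any 2 bases and GAAA, and for the GAS core, which is TTC, any 3 bases and GAA. The ISRE core was present in 34.5% of the member windows and in 3.44% of all 32851 windows in the table. It was present in 8 of 13 windows (61.5%) of members below 2/3 and in 4 of 30 windows (13.3%) of members between the limits. By gene this was 8 of 13 and 4 of 22, and the other members of these 2 groups had no window. The share also differed by role, from 0% for the IRF2 partners and the Ifi genes to 100% for the RNA sensors and kinase (3 windows). It was 14.3% for receptors and transducers and 11.1% for IRF factors. Whether the core goes with the ratio or with the role was not tested. The GAS core was present in 29.3% of the member windows and in 8.3% of all windows, with 23.1% for members below 2/3 and 30.0% for members between the limits. The symbol pattern takes in families known to be induced by interferons. Higher shares than over all windows therefore follow from the choice of genes and say nothing of the difference between the libraries. A match of letters does not show binding, and 9 member windows held both cores.

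The stretches around the ISRE core are shown for 5 members whose ratio was below 2/3. They are printed on the strand of the gene, with the matching bases in capitals. Runs of capitals longer than 10 bases are overlapping matches.
Isg15, chr4:156200862-156200921, minus strand, ratio 0.542: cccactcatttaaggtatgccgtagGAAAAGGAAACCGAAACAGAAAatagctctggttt
Ifit1, chr19:34640760-34640819, plus strand, ratio 0.365: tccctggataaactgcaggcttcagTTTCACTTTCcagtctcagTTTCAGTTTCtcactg
Oas1a, chr5:120907511-120907570, minus strand, ratio 0.431: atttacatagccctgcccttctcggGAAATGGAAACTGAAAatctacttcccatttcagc
Irgm1, chr11:48871416-48871475, minus strand, ratio 0.556: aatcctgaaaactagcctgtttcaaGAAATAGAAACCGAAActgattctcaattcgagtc
Bst2, chr8:71537568-71537627, minus strand, ratio 0.611: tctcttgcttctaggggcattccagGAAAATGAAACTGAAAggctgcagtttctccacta
Each of these 5 windows held at least 2 matches, and that of Isg15 held 3. Among the other members below 2/3 with the core, the window of Oas1c held 2 matches and those of Gbp2 and Irgm2 held 1.

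The ISRE core was also present near genes whose ratio was not below 2/3. The stretches of Ifih1, Ddx58 and Stat2 are shown as examples, and each of these windows held 1 match. The window of Ifitm3 (ratio 0.753) held 2 matches and that of Irf2 held 1, so the number of matches overlapped between members below 2/3 and the others.
Ifih1, chr2:62646206-62646248, minus strand, ratio 1.502: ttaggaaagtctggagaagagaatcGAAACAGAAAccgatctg
Ddx58, chr4:40239789-40239848, minus strand, ratio 0.827: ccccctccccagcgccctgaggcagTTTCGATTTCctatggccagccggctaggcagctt
Stat2, chr10:128270251-128270310, plus strand, ratio 0.862: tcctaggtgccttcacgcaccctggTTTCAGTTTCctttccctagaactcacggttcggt
The core was thus present on both sides of the lower limit.

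The receptor genes Ifnar2, Ifngr1 and Ifngr2 had similar levels in the 2 libraries, whereas Ifnar1 was lower in KO. Ifnar2 was at 34.1 FPKM for WT against 32.5 for KO, a ratio of 0.954 with an interval of 0.871 to 1.05. Ifngr1 was at 20.2 against 19.2 FPKM (ratio 0.948, interval 0.818 to 1.10). Ifngr2 was at 29.6 against 31.6 FPKM (ratio 1.07, interval 0.971 to 1.17). Counting error alone spans the value 1 for these 3 chains. Ifnar1, the other chain of the type I receptor, was at 11.8 FPKM for WT against 8.72 for KO, and its ratio of 0.736 had an interval (0.636 to 0.856) below 1 and on both sides of 2/3.

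Among the transducers, Stat2 and Irf9 were within the limits. Stat2 was at 7.33 against 6.32 FPKM, and the interval of its ratio of 0.862 (0.725 to 1.019) included 1. Irf9, a DNA-binding partner of STAT proteins, was listed at 10.6 FPKM for WT against 12.8 for KO (ratio 1.21, interval 1.05 to 1.39). Its KO row started at 56210596 on chromosome 14 of mm9, ahead of the WT start at 56222822, and covered the neighbour Rnf31, which had a WT row of its own at 5.44 FPKM and no KO row. With both rows summed the locus stood at 16.04 FPKM for WT against 12.8 for KO, a ratio of 0.798, opposite in direction to the row of Irf9 itself.

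Among the IRF transcription factors, Irf7 alone was past a limit. Irf7, which amplifies type I interferon production and is itself strongly inducible, was at 4.76 FPKM for WT against 2.93 for KO. Its ratio was 0.616, and the interval was 0.433 to 0.853, on about 94 and 59 fragments. Irf1, a factor induced by interferon gamma, was just inside the limit at 7.83 against 5.69 FPKM (ratio 0.727, interval 0.566 to 0.944). Irf3, which is present before infection and starts interferon transcription, was at 20.2 against 17.1 FPKM, a ratio of 0.845. Irf5 (ratio 0.799) and Irf8 (ratio 0.806), both prominent in myeloid cells, were also lower in KO. Irf2, a repressor of interferon responses, was at 9.06 against 9.78 FPKM, and the interval of its ratio of 1.08 (0.891 to 1.32) included 1. Irf4 was listed in WT only, at 0.0696 FPKM, an estimated 3 fragments. The IRF2 partners Irf2bp1, Irf2bp2 and Irf2bpl had ratios from 0.908 to 0.977, and Irf2bpl, the most abundant, was at 28.0 and 27.3 FPKM.

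The RNA sensors of the cytosol did not move together. Ifih1, which encodes the long double-stranded RNA sensor MDA5, was at 2.74 FPKM for WT against 4.12 for KO (interval 1.21 to 1.88). Its ratio of 1.502 lay just past 3/2 and became 1.49 after scaling the KO library by the median ratio over all genes. Ddx58, which encodes the sensor RIG-I, was at 10.2 against 8.40 FPKM (ratio 0.827, interval 0.708 to 0.967). Dhx58, which encodes LGP2, the regulator of both sensors, was at 3.85 against 1.91 FPKM (ratio 0.496, interval 0.337 to 0.723). The intervals of Ifih1 and Dhx58 did not overlap.

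Eif2ak2, which encodes the RNA-activated kinase PKR, was listed in the WT table only, at 68.0 FPKM. The KO table gave the same bounds, from 79249845 to 79281912 on chromosome 17 of mm9, to a row named Gm6548 at 60.6 FPKM. The ratio between these rows was 0.890.

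Of the 2 IFIT genes that the pattern found, Ifit1 was below the limit and Ifit2 was not. IFIT proteins bind viral RNA and translation factors. Ifit1 was at 4.76 FPKM for WT against 1.73 for KO, on about 113 and 42 fragments (ratio 0.365, interval 0.247 to 0.519). Ifit2 was at 5.79 against 7.62 FPKM (ratio 1.31, interval 1.09 to 1.58), the second highest of all members analysed. The intervals of these neighbours on chromosome 19 did not overlap. A further IFIT gene was listed under an older symbol, I830012O16Rik, which RefSeq gives as a synonym of Ifit3b, at 22.02 FPKM for WT against 16.3 for KO, a ratio of 0.743.

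The IFITM family held the most abundant member. IFITM proteins sit in cell membranes, and several of them hinder virus fusion. Genes such as Ifitm10 were taken in by symbol, and whether interferon induces each of them was not tested. Ifitm3 was at 573 FPKM for WT against 431 for KO (ratio 0.753, interval 0.711 to 0.796) from an estimated 2771 and 2147 fragments. Ifitm10 was at 37.3 against 28.0 FPKM, a ratio of 0.751. Ifitm1 was at 24.6 against 13.98 FPKM (ratio 0.568, interval 0.442 to 0.741). Ifitm6 was listed in KO only, at 1.63 FPKM, and its position lay inside the longer Ifitm3 row of the WT table. Because the Ifitm3 rows also span Ifitm1, the sum over the whole cluster was dominated by Ifitm3, at 598 FPKM for WT against 447 for KO, a ratio of 0.748.

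All 4 oligoadenylate synthetase genes that reached 1 FPKM were below the lower limit, compared with 6.74% of all genes. These enzymes sense double-stranded RNA and make a messenger that sets off RNA decay. Oas2 had the lowest ratio of all members, 0.162 (interval, 0.0600 to 0.355), with 1.19 FPKM for WT against 0.193 for KO, an estimated 43 and 7 fragments. Its depth was low, and with 1 FPKM added to both libraries the ratio was 0.545. Oas1a was at 4.47 against 1.93 FPKM (ratio 0.431, interval 0.282 to 0.671). Oasl2, a relative with ubiquitin-like domains, was at 3.07 against 1.75 FPKM, a ratio of 0.570. Oas1c was at 2.07 against 1.16 FPKM, a ratio of 0.559, and its longer WT row also covered Oas1e. Of the members of this family under 1 FPKM, Oas3 was lower in KO, at 0.507 and 0.179 FPKM (interval 0.136 to 0.824). The intervals of Oas1f, Oasl1 and Oas1b included 1. Oas1f rested on an estimated 2 fragments for WT and 1 for KO, and Oasl1 on 6 and 4. Oas1b was at 0.819 and 0.918 FPKM. The Oas1, Oas2 and Oas3 genes lie in one cluster on chromosome 5, and Oasl1 and Oasl2 lie apart from it on the same chromosome. The row of Oas1a also covered Oas1g in both tables. Close relatives in the cluster can share reads, so the split between them is uncertain.

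The ISG15 system was lower at its modifier and its protease. Isg15 (NCBI gene 100038882), which encodes a ubiquitin-like protein attached to other proteins during infection, was at 13.1 FPKM for WT against 7.09 for KO (ratio 0.542, interval 0.363 to 0.811) from an estimated 73 and 41 fragments. Usp18, which removes ISG15 and dampens receptor signalling, was at 2.42 against 1.14 FPKM (ratio 0.473, interval 0.253 to 0.851). Herc6, the ligase that attaches ISG15 in mice, was at 3.31 and 3.60 FPKM, and its ratio of 1.09 had an interval (0.873 to 1.35) that included 1.

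**Figure D3:**
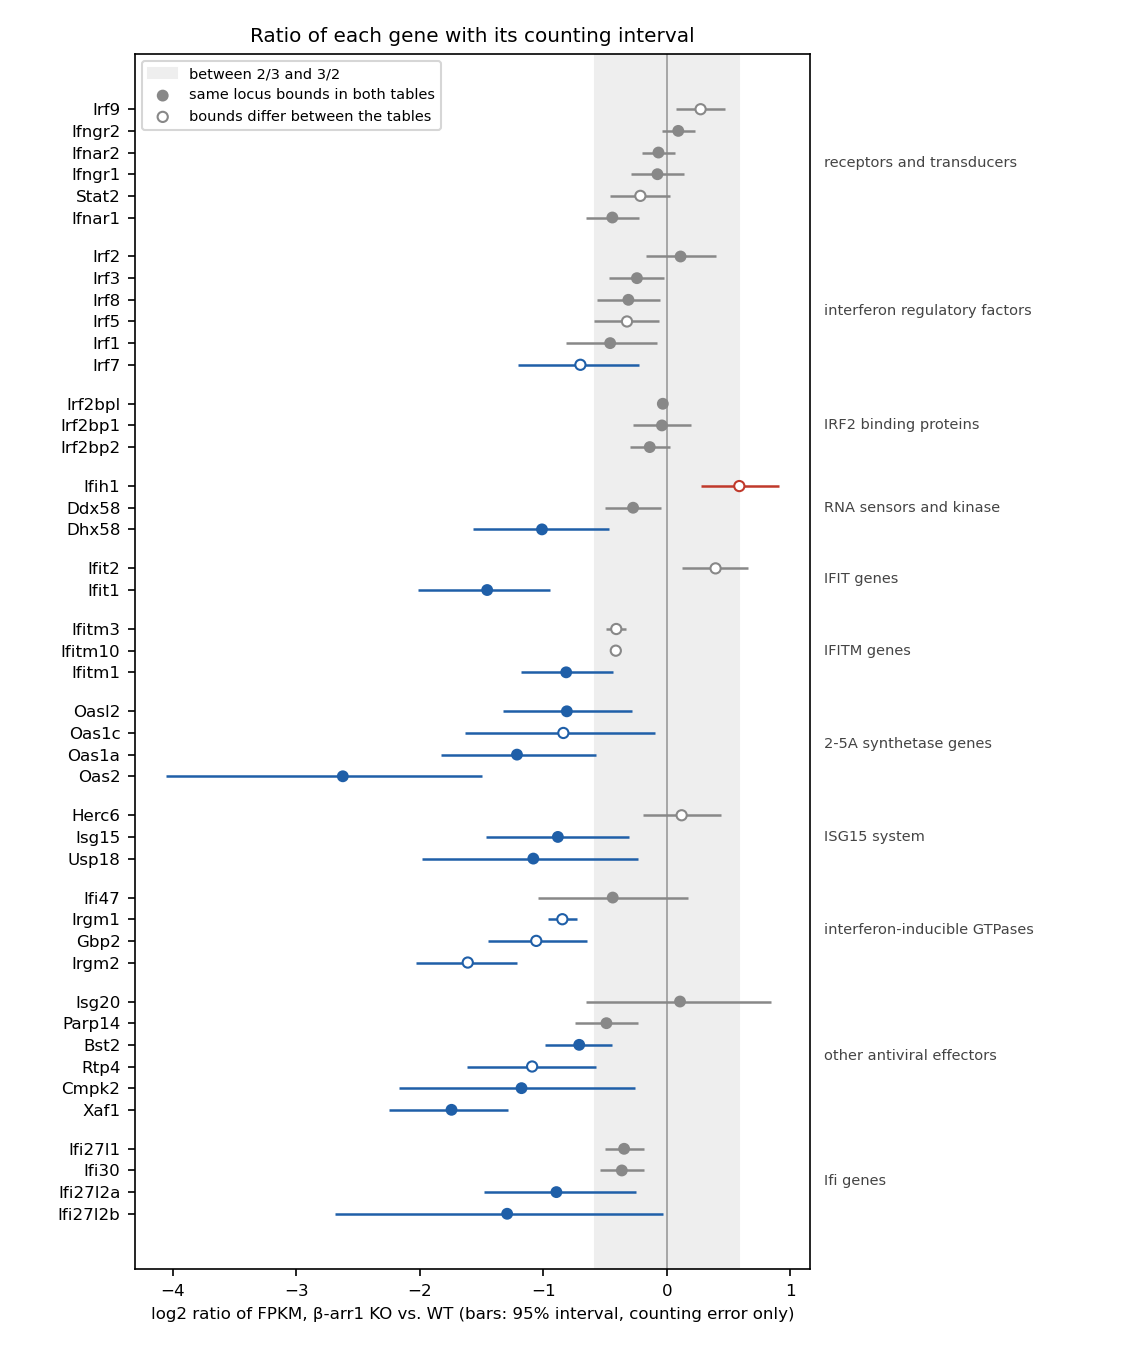
Ratio of FPKM, β-arr1 KO vs. WT (x axis, log2), of 44 of the 45 interferon-system genes by role, with bars for the 95% interval of counting error (2 genes have none), blue for genes below 2/3, red for the gene above 3/2, and grey for the others. Filled circles mark the 30 genes with the same locus bounds in both tables and open circles the others, and 13 of the 19 blue genes are filled.

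The interferon-inducible GTPases attack the membranes around intracellular pathogens. Of their 14 members, 10 could not be analysed, and 3 of the other 4 were below the limit, compared with 6.74% of all genes. These 3 include Irgm2, whose locus was within the limits when summed with Igtp (ratio 0.842). Irgm1, a regulator of the family, had the highest level and the narrowest interval, with 45.1 FPKM for WT against 25.1 for KO (ratio 0.556, interval 0.512 to 0.604) from an estimated 1573 and 901 fragments. Ifi47 was within the limits at 3.63 against 2.68 FPKM (ratio 0.738, interval 0.484 to 1.13). Its row overlapped those of Tgtp2, Gm12185 and Gm5431, and the sum over this locus had a ratio of 1.09.

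Several GTPase rows merged neighbouring genes differently in the 2 tables. Irgm2 was listed at 6.55 FPKM for WT against 2.14 for KO, a ratio of 0.327. The WT row, from 58013058 to 58036285 on chromosome 11, also covered Igtp, whereas the KO table gave Igtp its own row at 3.37 FPKM. The sum for Irgm2 and Igtp was 6.55 FPKM for WT against 5.52 for KO, a ratio of 0.842, which is within the limits.

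Gbp2 was at 7.11 against 3.42 FPKM, a ratio of 0.480, with Gbp3 inside its WT row and apart at 0.784 FPKM in the KO table. The sum of Gbp2 and Gbp3 gave a ratio of 0.591, still below 2/3. On chromosome 5, a WT row named Gbp6 at 5.09 FPKM covered the same stretch as the KO rows Gbp8 (0.0445 FPKM) and Gbp9 (6.00 FPKM), and the locus had a ratio of 1.19. The chromosome 5 rows carry different gene names and rest on similar fragment estimates, 201 for Gbp6 in WT and 203 for Gbp9 in KO. No interval was computed for this locus, so the side of 1 on which it lies is uncertain.

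Gbp7 and Iigp1 were lower in KO under 1 FPKM, Gbp7 at 0.811 and 0.418 FPKM, and Iigp1 at 0.832 and 0.311 FPKM. Gbp5 rested on an estimated 12 and 8 fragments, and the interval of its ratio of 0.649 (0.247 to 1.93) included 1. Mx1 and Mx2, genes of the dynamin-like GTPase family, stood at 0.249 to 0.385 FPKM in both libraries. They rested on an estimated 7 or 8 fragments each, and no difference was detectable at this depth.

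The remaining antiviral effectors included the member with the second lowest ratio. Xaf1 (NCBI gene 327959), an inducible gene tied to cell death, was at 6.94 FPKM for WT against 2.07 for KO (ratio 0.299, interval 0.210 to 0.409) from an estimated 160 and 49 fragments. Its row ran from 72115131 to 72127235 on chromosome 11 of mm9 in both tables. Rtp4, a receptor chaperone that is strongly induced by interferon, was at 7.40 against 3.47 FPKM (ratio 0.469, interval 0.326 to 0.671).

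Bst2, which encodes tetherin, the protein that holds budding viruses at the cell surface, was at 52.3 against 32.0 FPKM (ratio 0.611, interval 0.505 to 0.736). Cmpk2, a mitochondrial nucleotide kinase, was at 1.15 against 0.507 FPKM, a ratio of 0.442. Its neighbour on chromosome 12, Rsad2, which encodes viperin, was lower in KO as well, at 0.725 and 0.338 FPKM. Parp14 was just inside the limit at 4.46 against 3.18 FPKM (ratio 0.712, interval 0.598 to 0.849). Isg20, an RNA exonuclease, was at 3.10 against 3.34 FPKM, a ratio of 1.08 with an interval of 0.635 to 1.79.

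The Ifi genes were lower in β-arr1 KO without exception among the 5 listed. Ifi27l2a was at 23.6 FPKM for WT against 12.7 for KO (ratio 0.538, interval 0.359 to 0.840). Ifi27l2b was at 2.16 against 0.881 FPKM, a ratio of 0.408, on an estimated 19 and 8 fragments. Ifi27l1, their more abundant relative on chromosome 12, was at 96.8 against 76.1 FPKM (ratio 0.787, interval 0.706 to 0.878). Ifi30, a lysosomal thiol reductase of antigen processing, was at 74.4 against 57.8 FPKM, a ratio of 0.777. Ifi44 was under 1 FPKM in both libraries, at 0.612 and 0.447 FPKM. Over all families, 12 members stayed under 1 FPKM in both libraries, and 9 of these were lower in KO. Among these 9, only Gbp7, Iigp1, Oas3 and Rsad2 had a counting interval below 1. The intervals of the others, Ifi44 among them, included 1, so their direction is uncertain. The share of all genes under 1 FPKM that were lower in KO is not given here, so the count has no background to compare with.

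Genes of the pathway that the symbol pattern leaves out were read from a list of 68. Of these, 50 were listed in both tables and reached 1 FPKM, 9 had a ratio below 2/3 (6.74% of all genes) and 1 a ratio above 3/2 (7.9% of all genes), with a median ratio of 0.852. Among 7 ligand genes, Ifnz was listed at 0.625 FPKM for WT against 0.356 for KO, Ifnb1 was listed in KO only on an estimated 1 fragment, and the others were not listed. No gene for interferon alpha appeared in either table.

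Of 10 kinases, phosphatases and inhibitors outside the pattern, 9 were lower in KO and within the limits. Over all genes, 46.9% were lower in KO. Jak1 had a ratio of 0.883 (interval 0.826 to 0.943), and the intervals of Socs3 and Il10rb also lay below 1. The intervals of Tyk2 (ratio 0.874, 0.735 to 1.04) and Jak2 (ratio 0.993, 0.876 to 1.13) included 1. So did those of Ptpn2, Ptpn6, Ptpn11 and Pias1. Socs1, an inhibitor of JAK kinases that interferons induce, was the gene above 3/2, at 2.0 FPKM for WT against 3.82 for KO (ratio 1.91, interval 1.08 to 3.43) on an estimated 20 and 39 fragments.

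Among 13 sensors and adaptors, 3 sensors of nucleic acids were below 2/3, compared with 6.74% of all genes. Mb21d1, which encodes the DNA sensor cGAS, was at 2.79 against 1.14 FPKM, a ratio of 0.409. Zbp1 was at 4.11 against 1.71 FPKM (ratio 0.417, interval 0.297 to 0.582). Aim2, an inflammasome sensor, had a ratio of 0.605 (interval, 0.409 to 0.893). Tlr3, a sensor of RNA in endosomes, was higher in KO within the limits, with a ratio of 1.44.

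Among 27 further induced genes, 6 were below 2/3, compared with 6.74% of all genes. Cxcl10, a chemokine and a common readout of interferon action, was at 2.67 against 0.984 FPKM (ratio 0.368, interval 0.155 to 0.853). Nlrc5, an activator of class I antigen presentation, had a ratio of 0.475. Tgtp2 had a ratio of 0.569 (interval 0.327 to 0.983), but the locus that its row shares with Ifi47 had a summed ratio of 1.09. The abundant Lgals3bp was at 88.9 against 56.1 FPKM (ratio 0.631, interval 0.586 to 0.679), and Tor3a at 14.3 against 9.05 FPKM, a ratio of 0.633. Psmb8 and Psmb9, subunits of the immunoproteasome, had ratios of 0.675 and 1.34 and lay between the limits.

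**Figure D4:**
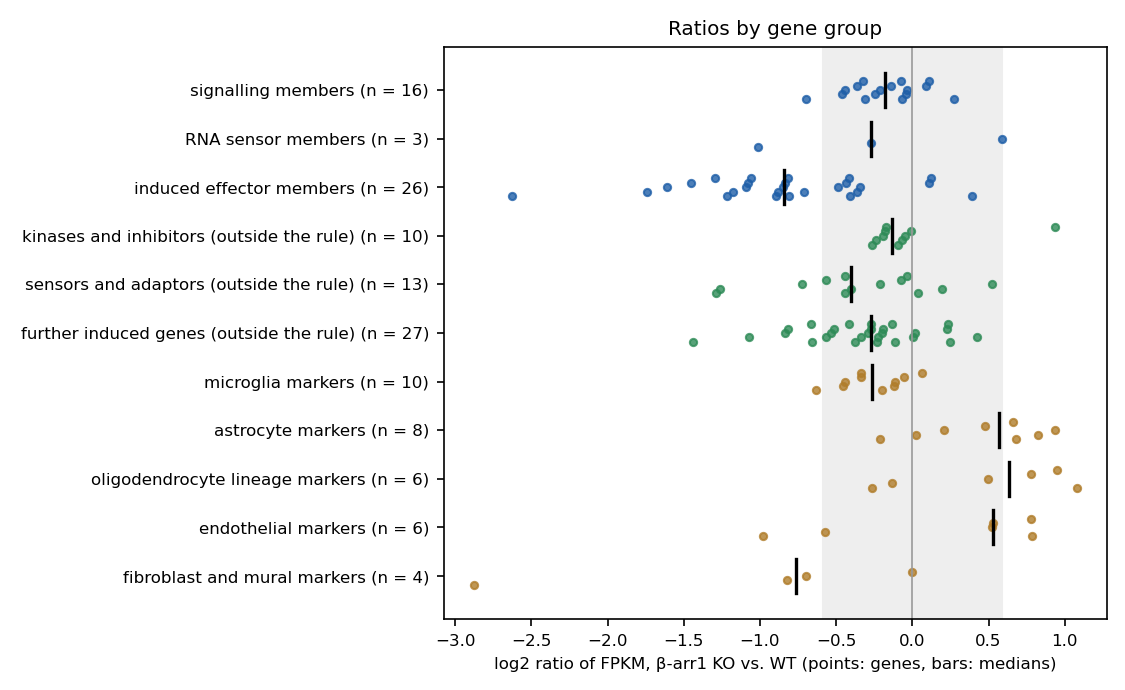
log2 ratio of FPKM, β-arr1 KO vs. WT (x axis), of single genes (points) with the median of each group (black bars), for members by class (blue), pathway genes outside the symbol pattern (green) and cell type markers (brown); the grey band runs from 2/3 to 3/2. The induced effectors have the lowest median of the blue and green groups, and the microglia markers lie mostly between 1 and 2/3.

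Markers of other cells differed between the libraries too. Of the members analysed, 6 had a whole counting interval below 0.645, the ratio of the lowest microglia marker (Cd68). For 11 it lay below 0.776, the ratio of the summed markers. Both counts take rows as listed and cover counting error only. Both include Irgm2, whose locus had a ratio of 0.842 when summed with Igtp, and Gbp2, at 0.591 when summed with Gbp3. The 11 also include Ifitm1, whose summed cluster had a ratio of 0.748. The part of microglia in the levels of the members was not tested. For the marker counts that follow, 7.9% of all genes were above 3/2 and 6.74% below 2/3. Of 8 astrocyte markers, 4 were above 3/2 and none below 2/3, with a median ratio of 1.49 (Aqp4 at 1.92, S100b at 1.77). Their sum had a ratio of 1.14, and most of it was Gfap, at 1.017. Of 6 endothelial markers analysed, Pecam1 and Flt1 were above 3/2 and Cdh5, the most abundant, was below 2/3 at 0.507, with a median ratio of 1.44 and a ratio of 0.805 for the sum. Of 6 markers of the oligodendrocyte lineage analysed, 3 were above 3/2 and none below 2/3, with a median ratio of 1.56. Of 4 fibroblast and mural markers analysed, Dcn (0.136), Col1a1 (0.564) and Rgs5 (0.615) were below 2/3, whereas the most abundant, Acta2, was at 0.996. The only neuronal marker that reached 1 FPKM, Tubb3, had a ratio of 1.34. Of 6 markers of T and natural killer cells, which make interferon gamma, 1 was listed, at 0.0854 FPKM in WT.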

How the data were processed

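RNA from cultured DG astrocytes of WT and β-arr1 KO mice was sequenced by the authors as paired reads, with 1 library per genotype. Per the study's methods and the submitters' processing notes, the authors aligned reads to mm9 with TopHat (1.4.0) and estimated expression with Cufflinks. They deposited 1 FPKM value per gene row, with values above 0 only. Cufflinks' version is not given in the sources used here. The tables hold no counts or confidence bounds.

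The tables were joined by symbol, with the highest row kept for a repeated symbol. Genes in both tables that reached 1 FPKM in either library were analysed, and the limits of 3/2 and 2/3 are those of the study. No p-value was computed. Row starts were shifted by 1 to match GENCODE vM1 (NCBIM37, the same assembly as mm9), where 99.9% of symbols lay on the same chromosome.

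Depth was fitted to genes under 0.15 FPKM with 1 transcript longer than 1000 bases, of which 68.5% (WT) and 68.1% (KO) lay within 5% of 1, 2 or 3 fragments. Fragments per gene use the longest annotated transcript in both libraries, so intervals are off where rows differ in length or a shorter transcript is expressed. The calls, depth fit and intervals were tested on simulated data.

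The members, roles and lists were chosen with earlier results of these data known. Genes named are those past a limit, those nearest to it, the most abundant of each role, receptors and transducers, and those listed in one table, with others added for context after their values were seen. A few genes that enter the counts are not reported here by name, and 1 of them was left out of the plots that name genes. Alternatives were other minimum levels, scalings, pseudocounts and limits, and the summing of rows with the same symbol. Summing overlapping rows and requiring the same bounds were added after seeing the data. Scripts ran in Python 3.11.15 (scipy 1.17.1, pandas 2.3.3, numpy 2.4.6, and matplotlib 3.10.9 for plots).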

Additional observations from a re-analysis of the deposited data

How the results depend on the processing

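The number of members below 2/3 was 9 of 30 at a minimum of 5 FPKM, where 4.61% of all genes were below, and 11 of 45 were below 1/2 with limits of 2 and 1/2, where 2.73% of all genes were. Under the other alternatives it lay between 13 and 26, and the median log2 ratio of the members stayed between -0.46 and -0.36. With overlapping rows summed, 17 of 46 loci with a member were below 2/3, compared with 6.19% of all loci, and Ifitm1 (0.748) and Irgm2 (0.842) were within the limits as parts of their clusters. With a pseudocount of 1 FPKM, Cmpk2, Irf7, Oas1c and Oasl2 were within them, and 13 members stayed below under every scaling, pseudocount and summing tried. The number of members above 3/2 was 0 at a minimum of 5 FPKM, after rescaling by the median ratio or by the upper quartile, with a pseudocount of 0.1 or 1 FPKM, with limits of 2 and 1/2, and with the same locus bounds. Over all genes, 961 were above and 820 below. These counts were 1500 and 1326 at a minimum of 0.1 FPKM, 505 and 422 at 5 FPKM, 1572 and 1404 without a minimum, 628 and 544 with a pseudocount of 1 FPKM, 356 and 332 with limits of 2 and 1/2, and 551 and 464 with the same locus bounds. The ratio of Arrb1 was 0.432 with a pseudocount of 1 FPKM. No paired analysis was possible because each genotype has 1 library, and for the same reason no library could be left out. Members on few fragments, such as Oas2, Ifi27l2b and Cmpk2, have wide intervals, and rows that merge neighbours limit what can be said of Irgm2, Gbp2, Irf9 and Ifi47.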
